A study of Mus musculus with 12 samples.

Results

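Genes of DNA replication and S phase were followed through LPS exposure, tolerance and recovery of mouse macrophages. The set is a list of 40 gene symbols, matched to the gene names printed in the array files, and the probe with the highest mean signal stood for each gene. Of the 40, 38 had a probe under that symbol and 36 were tested, among 20511 genes tested in all. Probes for Brca1 and Ccne2 were not well above background on any of the 12 arrays. Orc1 and Orc6 are on the array under their older symbols, Orc1l and Orc6l, and are not counted in the 36. Of the 36, 35 were well above background on all 12 arrays. Cdc6 was above background on 10, which were 2 of 3 acute, 3 of 3 tolerant, 2 of 3 recovered and 3 of 3 untreated arrays.

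The cells were bone marrow-derived macrophages of female C57BL/6 mice aged 6 to 8 weeks, grown for 7 days in medium conditioned by L929 cells, and each group held 3 arrays from independent experiments. Acute cells received lipopolysaccharide (LPS, from the outer membrane of bacteria) for 4 h. Tolerant cells received it for 8 h, rested for 16 h and received it again for 4 h. Recovered cells went through the same steps with a rest of 88 h, which the treatment protocol gives as 2 to 4 days. Untreated cells received none and are the shared control of the first 3 comparisons, so those comparisons are not independent of each other. The labels give no untreated cells matched to the longer culture of the tolerant and recovered groups, so LPS and time in culture cannot be told apart there.

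DNA replication begins when the origin recognition complex, Cdc6 and Cdt1 load the ring-shaped MCM helicase onto origins in G1 phase. In S phase, Cdc45 and the GINS complex activate the helicase, primase and the polymerases copy the strands, and the clamp loader sets the sliding clamp Pcna on the DNA to hold the polymerases. Most of these genes are targets of E2F transcription factors, which cyclin-dependent kinases release from the retinoblastoma family of repressors. In culture, bone marrow macrophages divide in response to macrophage colony-stimulating factor, which L929 cells secrete, and LPS is known to arrest that division.

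The arrays were read in a single colour, and between 47.8% and 55.0% of the spots lay well above background, with no saturated spot. Values are log2 signals after each array was brought to a common 75th percentile, so they compare groups for a gene and not genes with each other. Macrophage markers were high throughout, with Csf1r between 17.17 and 17.96 and Cd68 between 16.34 and 17.28 on the 12 arrays. The summed linear signal of the 9 tested macrophage markers lay between 637861 and 720850 in acute, 642479 and 752435 in tolerant, 794274 and 930606 in recovered, and 579163 and 621866 in untreated cells. Of 4 progenitor markers 2 were tested, Kit and Cd34, and their summed signal was 35.7 to 95.8 in acute, 23.9 to 105 in tolerant, 40.6 to 77.3 in recovered and 78.5 to 149 in untreated cells. The signal of the 2 tested lymphocyte markers of 8, Cd79b and Cd3e, summed to 2181 to 2513 in acute, 1744 to 2043 in tolerant, 1649 to 2130 in recovered and 2689 to 3843 in untreated cells. Both sums had their highest median in untreated cells, as did most of the replication genes described, but the markers within a sum differed. Kit fell by 3.23 in tolerant and by 2.25 in recovered cells (adjusted p = 0.000206 and 0.00111), where Cd34 stood at 1.22 and 1.12 (adjusted p = 0.381 and 0.343). Cd79b fell by 3.86 in recovered cells (adjusted p = 0.000735), where Cd3e stood at 0.23 (adjusted p = 0.527). Of 8 neutrophil markers 3 were tested, with a summed signal of 4673 to 6350 in acute, 4494 to 7586 in tolerant, 6671 to 7241 in recovered and 4283 to 6529 in untreated cells. Among them S100a8 rose by 2.61 in tolerant and 1.50 in recovered cells (adjusted p = 0.000251 and 0.0045) and Camp by 0.86, 2.25 and 1.66 in acute, tolerant and recovered cells (adjusted p = 0.0294, 0.000134 and 0.000498), while Elane was not called. No erythroid marker (1 tested of 5) and no stromal marker (2 of 5) was called against untreated cells. The part of such cells in the results was not tested. In bulk RNA, fewer cells in S phase and less RNA per cell cannot be told apart.

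Of the replication genes that passed the test, most were lower after LPS and a few were higher. In acute against untreated cells, limma called 14 of the 36 members lower (38.9%) and 3 higher (8.33%), where 14.9% of all genes tested were called lower and 14.3% higher. In tolerant cells 16 members were lower (44.4%) and 0 higher, against 8.64% and 11.3% of all genes. In recovered cells 12 were lower (33.3%) and 4 higher (11.1%), against 16.8% and 18.6% of all genes. The median log2 difference of the 36 members was -0.44 in acute, -0.59 in tolerant and -0.36 in recovered cells, beside 0.02, -0.02 and 0.07 over all genes. For the 0 members higher in tolerant cells, 0 had an unadjusted p under 0.05 in that direction, and 0 were called with the replicate number as a block (18.9% of all genes were).

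The 14 acute calls became 7 without untreated replicate 1 and 8 without untreated replicate 3, acute replicate 2 or acute replicate 3. The 16 tolerant calls became 3 without tolerant replicate 2, 4 without untreated replicate 1, 6 without untreated replicate 3 or tolerant replicate 3, and 10 without untreated replicate 2, acute replicate 2 or tolerant replicate 1. These fits had fewer arrays for every gene, and the share of all genes called in such fits is not given here or below. Whether the losses were particular to the members was not tested. With the replicate number as a block, 26 members were lower in tolerant cells, where 18.8% of all genes were. Leaving out each of the 12 arrays in turn kept the acute falls of Cdc6, Chaf1a, E2f1, Pold1, Pole2, Prim1 and Rfc4, the tolerant falls of Mcm2, Mcm7 and Pole2, and the recovered falls of Cdc6, Chaf1a, E2f1, Mcm2, Pold1, Pole2, Prim1 and Rfc4. The rises of Pcna, Rfc3 and Tyms in acute and in recovered cells were also kept in every such fit.

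The other calls against untreated cells were each lost in at least 1 of those 12 fits. In acute cells, the falls of Mcm2, Mcm3, Mcm4, Mcm7, Fen1, Tk1 and Uhrf1 were lost without untreated replicate 1, all of them but Mcm3 also without untreated replicate 3 or acute replicate 2, all but Mcm7 without acute replicate 3, and Mcm2, Mcm4 and Tk1 without acute replicate 1. In tolerant cells, the 13 falls other than Mcm2, Mcm7 and Pole2 were lost without tolerant replicate 2, all of them but Pold1 without untreated replicate 1, all but Cdt1, Rfc4 and Rrm2 without untreated replicate 3, and all but Chaf1a and Pold1 without tolerant replicate 3. Those of Cdt1, Dut, Pola1, Rrm1, Rrm2 and Uhrf1 were also lost without untreated replicate 2, those of Cdt1, Chaf1a, Dut, E2f1, Pold1 and Rrm1 without tolerant replicate 1, and those of Chaf1a, Dut, E2f1, Pola1, Pole and Rrm1 without at least 1 acute or recovered array. In recovered cells, Mcm3 was lost without untreated replicate 1 or recovered replicate 3, Mcm7 and Gins1 also without untreated replicate 3 or recovered replicate 2, and Uhrf1 without any untreated array in turn, acute replicate 2, tolerant replicate 3 or recovered replicate 3. The rise of Gins2 there was lost without each array in turn but untreated replicate 3 and tolerant replicate 3. Without the second scan day, which held the 4 arrays of replicate 3, the falls of Mcm2, Mcm4, Mcm7, Tk1 and Uhrf1 in acute, of Mcm10, Pola1, Pole, Rrm1, Uhrf1 and E2f1 in tolerant and of Mcm2, Mcm7, Gins1 and Uhrf1 in recovered cells were lost, while Mcm6 was called higher in acute cells and Cdc6 and Rpa2 lower in tolerant cells.

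**Figure D1:**
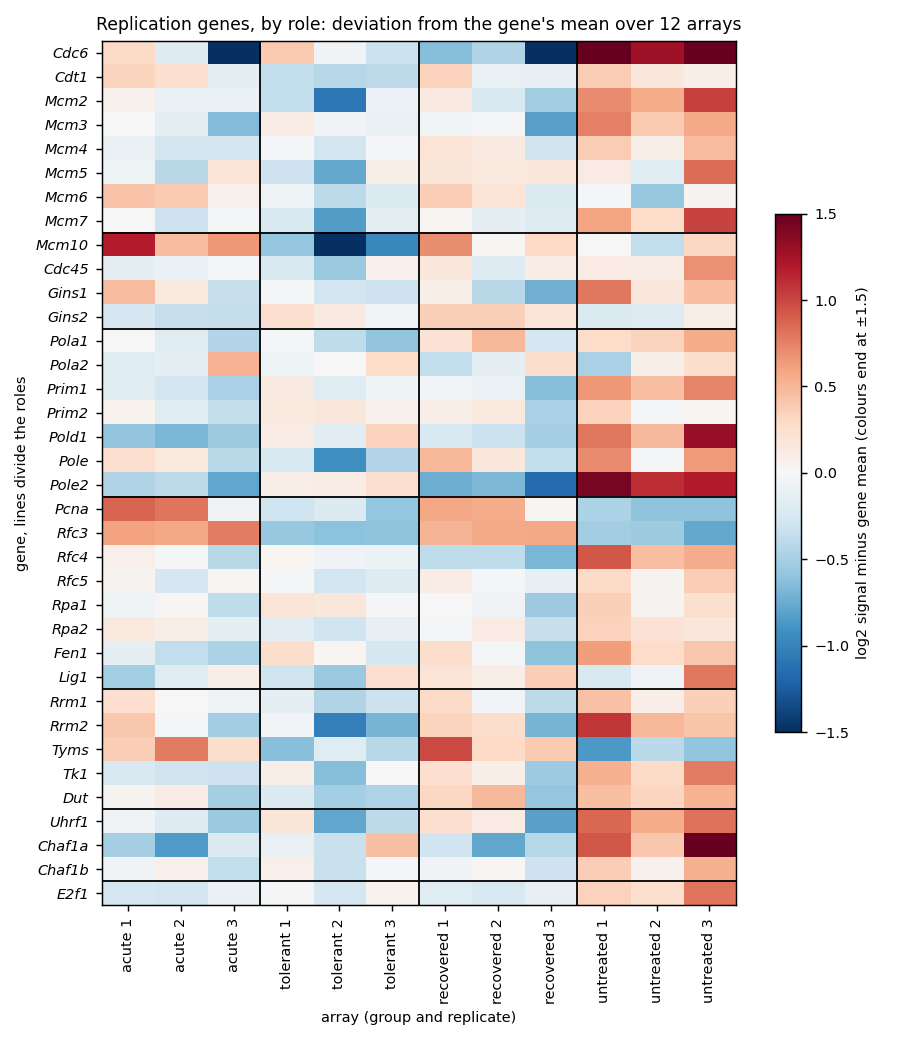
Heat map of the 36 tested members (vertical axis, divided by role) on the 12 arrays (horizontal axis, by group and replicate), coloured by log2 signal minus the gene's mean over the arrays. Most genes are red on the 3 untreated arrays at the right and pale or blue elsewhere, while Rfc3, Pcna and Tyms run the other way and Mcm10 is lowest on the 3 tolerant arrays.

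Among the helicase loading genes, Cdc6 had the largest shift of all members. Cdc6 recruits the MCM helicase to origins. Cdc6 measured 5.53, 5.05 and 3.46 in acute cells, 5.64, 5.19 and 4.92 in tolerant cells and 4.61, 4.79 and 3.48 in recovered cells, against 6.97, 6.52 and 6.76 in untreated cells. All 3 untreated arrays were above all 9 LPS arrays, and the acute and recovered arrays of replicate 3, both dim, were the lowest. Cdc6 fell by 2.07 (SE 0.49, adjusted p = 0.00722) in acute cells and by 2.46 (SE 0.49, adjusted p = 0.00218) in recovered cells. In tolerant cells the difference was -1.50 (SE 0.49, adjusted p = 0.0509, or 0.00734 with the replicate number as a block). A dimmer second Cdc6 probe, above background on 4 arrays, gave -1.57, -2.22 and -2.75 in acute, tolerant and recovered cells against untreated cells.

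The ring of the MCM helicase has 6 subunits, Mcm2 to Mcm7, and they did not move alike. Mcm2 measured 8.71, 8.54 and 8.54 in acute cells, 8.27, 7.56 and 8.56 in tolerant cells and 8.78, 8.41 and 8.13 in recovered cells, against 9.36, 9.20 and 9.67 in untreated cells. The untreated arrays lay above all others, and tolerant replicate 2 was the lowest. Mcm2 fell by 0.81 (SE 0.25, adjusted p = 0.0317) in acute, by 1.28 (SE 0.25, adjusted p = 0.00419) in tolerant and by 0.97 (SE 0.25, adjusted p = 0.0114) in recovered cells. Mcm7 fell by 0.74, 1.03 and 0.73 in the same order (adjusted p = 0.0283, 0.00745 and 0.0265). Mcm3 fell by 0.83 in acute and by 0.86 in recovered cells (adjusted p = 0.0202 and 0.015), with -0.59 in tolerant cells (adjusted p = 0.113, or 0.0232 with the block). Mcm4 fell in acute cells by 0.54 (adjusted p = 0.0358), beside -0.42 in tolerant (adjusted p = 0.115, or 0.0493 with the block) and -0.31 in recovered cells (adjusted p = 0.198). Mcm5 was not called in any of the 3, at -0.36, -0.59 and -0.10, although the block put tolerant cells past the threshold (adjusted p = 0.0253). Mcm6 was not called either, and its differences were 0.48 in acute (SE 0.21, adjusted p = 0.116), -0.04 in tolerant and 0.30 in recovered cells.

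Cdt1, the partner of Cdc6 in loading the MCM ring, fell in tolerant cells by 0.60 (SE 0.18, adjusted p = 0.0319) and stood at -0.06 in acute and -0.17 in recovered cells (adjusted p = 0.858 and 0.483). The origin recognition subunit listed as Orc6l differed by -0.52 in acute, -0.31 in tolerant and -0.68 in recovered cells, and none passed the threshold (adjusted p = 0.155, 0.462 and 0.0566). Of the 8 tested genes of helicase loading, 5 fell in acute, 3 in tolerant and 4 in recovered cells, and 0 rose. Of all genes, 14.9%, 8.64% and 16.8% were called lower and 14.3%, 11.3% and 18.6% higher in the same order. With the block, 7 of the 8 were lower in tolerant cells, where 18.8% of all genes were.

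The helicase activation genes were split. Mcm10 helps the helicase start unwinding and tethers the primase polymerase. Mcm10 measured 10.53, 9.82 and 10.01 in acute cells, 8.78, 7.63 and 8.39 in tolerant cells and 10.06, 9.37 and 9.66 in recovered cells, against 9.37, 8.99 and 9.67 in untreated cells. The acute arrays lay above all untreated arrays and overlapped the recovered ones, and all 3 tolerant arrays lay under every array of the other groups. Mcm10 fell by 1.08 (SE 0.31, adjusted p = 0.032) in tolerant cells, to 0.475 of the untreated signal. In acute cells it differed by 0.78 (SE 0.31, adjusted p = 0.0871, or 0.00522 with the block, which called it higher), and in recovered cells by 0.35 (adjusted p = 0.416).

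Against untreated cells, Gins2, a subunit of the GINS complex of the active helicase, was called only in recovered cells. Gins2 measured 9.08, 8.99 and 8.97 in acute cells, 9.59, 9.46 and 9.29 in tolerant cells and 9.69, 9.69 and 9.52 in recovered cells, against 9.12, 9.13 and 9.44 in untreated cells. Recovered arrays lay above every untreated and every acute array and overlapped the tolerant arrays. Gins2 rose in recovered cells by 0.41 (SE 0.14, adjusted p = 0.0435), beside -0.22 in acute (adjusted p = 0.306) and 0.22 in tolerant cells (adjusted p = 0.344). Its partner Gins1 fell in recovered cells by 0.82 (SE 0.26, adjusted p = 0.0288), and stood at -0.39 in acute (adjusted p = 0.323) and at -0.68 in tolerant cells (adjusted p = 0.0957, or 0.00702 with the block). Cdc45, which joins GINS and the MCM ring, had differences of -0.40, -0.55 and -0.29 in acute, tolerant and recovered cells (adjusted p = 0.178, 0.086 and 0.312), and the block called the first and second lower (adjusted p = 0.0426 and 0.0131).

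Polymerase genes fell or did not pass the test. Pole2 is the accessory subunit of DNA polymerase epsilon, the leading-strand polymerase. Pole2 measured 6.22, 6.28 and 5.89 in acute cells, 6.77, 6.79 and 6.91 in tolerant cells and 5.94, 6.00 and 5.52 in recovered cells, against 8.09, 7.78 and 7.87 in untreated cells. The 4 groups did not overlap except acute with recovered cells and untreated arrays were the highest. Pole2 fell to 0.291 of the untreated signal in acute (-1.78, SE 0.17, adjusted p = 1.34e-05), to 0.469 in tolerant (-1.09, SE 0.17, adjusted p = 0.000963) and to 0.234 in recovered cells (-2.09, SE 0.17, adjusted p = 3.44e-06).

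Pold1 is the catalytic subunit of DNA polymerase delta, which extends the lagging strand. Pold1 measured 9.76, 9.67 and 9.82 in acute cells, 10.47, 10.19 and 10.70 in tolerant cells and 10.11, 10.03 and 9.85 in recovered cells, against 11.15, 10.84 and 11.65 in untreated cells. Untreated arrays were again the highest and acute arrays the lowest. Pold1 fell by 1.46 (SE 0.21, adjusted p = 0.000259) in acute, by 0.76 (SE 0.21, adjusted p = 0.0243) in tolerant and by 1.22 (SE 0.21, adjusted p = 0.000827) in recovered cells. Prim1, the catalytic primase subunit that lays down RNA primers, fell by 0.93, 0.65 and 0.86 in acute, tolerant and recovered cells (adjusted p = 0.00239, 0.0275 and 0.00322).

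Of the other polymerase genes, Pola1 and Pole passed the test in tolerant cells. Pola1, the catalytic subunit of the primase polymerase alpha, fell in tolerant cells by 0.72 (SE 0.22, adjusted p = 0.04), beside -0.60 in acute (adjusted p = 0.0635, or 0.0282 with the block) and -0.23 in recovered cells (adjusted p = 0.452). Pole, the catalytic subunit of polymerase epsilon, fell in tolerant cells by 0.97 (SE 0.29, adjusted p = 0.0376) on its brightest probe, but a second probe that was above background on all 12 arrays gave 0.14. Pola2 and Prim2, the accessory subunits of polymerase alpha and primase, had the smallest ranges of group means among the 36, at 0.15 and 0.29, and were called in none of the comparisons. Of 7 polymerase and primase genes, 3 fell in acute, 5 in tolerant and 3 in recovered cells, and 0 rose. Of all genes, 14.9%, 8.64% and 16.8% were called lower and 14.3%, 11.3% and 18.6% higher in the same order.

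**Figure D2:**
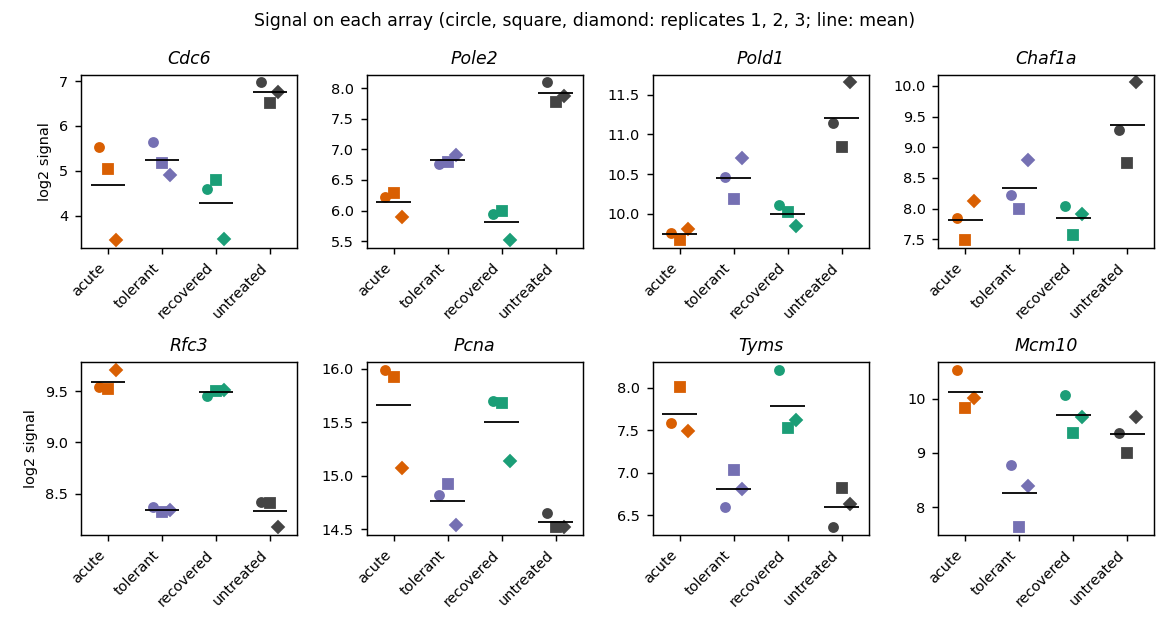
Log2 signal (vertical axis) of 8 members on each array, by group (horizontal axis), with a marker shape per replicate and a line at the group mean. Cdc6, Pole2, Pold1 and Chaf1a are highest in untreated cells, Rfc3, Pcna and Tyms are high in acute and recovered cells and low in tolerant and untreated cells, and Mcm10 is lowest in tolerant cells.

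Among the genes of the sliding clamp and its loader, Pcna and Rfc3 rose and Rfc4 fell. Rfc3 is a small subunit of the clamp loader, replication factor C. Rfc3 measured 9.54, 9.52 and 9.71 in acute cells, 8.37, 8.32 and 8.34 in tolerant cells and 9.45, 9.50 and 9.52 in recovered cells, against 8.42, 8.41 and 8.17 in untreated cells. The acute and recovered arrays lay more than 1 unit above all tolerant and untreated arrays, which overlapped each other. Rfc3 rose 2.39-fold in acute (1.26, SE 0.12, adjusted p = 1.75e-05) and 2.23-fold in recovered cells (1.15, SE 0.12, adjusted p = 3.08e-05), and stood at 0.01 in tolerant cells (SE 0.12, adjusted p = 0.974). Rfc4, another subunit of the same complex, fell by 0.77, 0.69 and 1.13 in acute, tolerant and recovered cells (adjusted p = 0.0063, 0.018 and 0.000456). Rfc5 stood at -0.30, -0.40 and -0.24 and was not called (adjusted p = 0.171, 0.0853 and 0.238), while the block called it lower in acute and tolerant cells (adjusted p = 0.0458 and 0.0151).

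Pcna is the clamp itself. Pcna measured 15.99, 15.92 and 15.07 in acute cells, 14.82, 14.92 and 14.54 in tolerant cells and 15.70, 15.68 and 15.14 in recovered cells, against 14.65, 14.52 and 14.52 in untreated cells. Acute replicate 3 and recovered replicate 3 were the lowest of their groups but still above every untreated array. Pcna rose 2.14-fold in acute (1.10, SE 0.25, adjusted p = 0.00557) and 1.92-fold in recovered cells (0.94, SE 0.25, adjusted p = 0.0115), with 0.20 in tolerant cells (SE 0.25, adjusted p = 0.656).

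Fen1, the nuclease that trims Okazaki fragments, fell in acute cells by 0.76 (SE 0.22, adjusted p = 0.0254), beside -0.42 in tolerant (adjusted p = 0.24, or 0.0394 with the block) and -0.56 in recovered cells (adjusted p = 0.0766, or 0.00772 with the block). Lig1, the ligase that seals them, was at -0.36, -0.37 and 0.06 and was not called (adjusted p = 0.417, 0.436 and 0.897). The single-strand binding subunits Rpa1 and Rpa2 were not called on the probes used. Rpa1 differed by -0.35, -0.09 and -0.41 (adjusted p = 0.191, 0.792 and 0.107, the last 0.0306 with the block), and Rpa2 by -0.21, -0.44 and -0.32 (adjusted p = 0.383, 0.0702 and 0.13, the second 0.0213 with the block). A dimmer Rpa1 probe, above background on all 12 arrays, gave -0.53 in acute and -0.68 in recovered against untreated cells when all probes were fitted (adjusted p = 0.0392 and 0.00948).

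Of the nucleotide supply genes, Tyms rose and others fell. Tyms, thymidylate synthase, makes the thymidine nucleotide for DNA. Tyms measured 7.59, 8.00 and 7.49 in acute cells, 6.60, 7.04 and 6.81 in tolerant cells and 8.21, 7.53 and 7.62 in recovered cells, against 6.36, 6.82 and 6.63 in untreated cells. All acute and recovered arrays lay above all untreated and all tolerant arrays, and tolerant and untreated arrays overlapped. Tyms rose 2.13-fold in acute (1.09, SE 0.22, adjusted p = 0.00317) and 2.27-fold in recovered cells (1.18, SE 0.22, adjusted p = 0.00163), with 0.21 in tolerant cells (SE 0.22, adjusted p = 0.59).

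Ribonucleotide reductase makes deoxynucleotides from ribonucleotides, and Rrm2 is its small subunit. Rrm2 measured 11.29, 10.87 and 10.37 in acute cells, 10.85, 9.86 and 10.19 in tolerant cells and 11.22, 11.15 and 10.19 in recovered cells, against 11.96, 11.38 and 11.30 in untreated cells. Replicate 1 was the highest array of each group, and tolerant replicate 2 was the lowest array. Rrm2 fell in tolerant cells by 1.25 (SE 0.35, adjusted p = 0.0278). In acute and recovered cells it stood at -0.71 and -0.70 (SE 0.35 each, adjusted p = 0.168 and 0.15), and the block called both lower (adjusted p = 0.0195 and 0.0179). The large subunit Rrm1 fell in tolerant cells by 0.60 (SE 0.19, adjusted p = 0.0473) and stood at -0.35 in recovered cells (adjusted p = 0.183, or 0.0479 with the block). Dut, which removes dUTP, fell in tolerant cells by 0.83 (SE 0.26, adjusted p = 0.0484), and Tk1, the thymidine salvage kinase, fell in acute cells by 0.81 (SE 0.24, adjusted p = 0.027), with -0.70 in tolerant cells (adjusted p = 0.0659, or 0.0354 with the block). The calls for Rrm1 and Dut lay close to the threshold of 0.05.

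At the fork, Chaf1a is the large subunit of the chromatin assembly factor that deposits histones on new DNA. Chaf1a measured 7.85, 7.49 and 8.13 in acute cells, 8.23, 8.00 and 8.80 in tolerant cells and 8.05, 7.56 and 7.91 in recovered cells, against 9.28, 8.74 and 10.06 in untreated cells. Every untreated array was above every acute and recovered array, while tolerant replicate 3 overlapped the untreated arrays. Chaf1a fell by 1.54 (SE 0.32, adjusted p = 0.00376) in acute, by 1.01 (SE 0.32, adjusted p = 0.048) in tolerant and by 1.52 (SE 0.32, adjusted p = 0.00354) in recovered cells. Its partner Chaf1b was at -0.44, -0.42 and -0.44 and was not called (adjusted p = 0.103, 0.147 and 0.0861). Uhrf1, which recruits the maintenance methyltransferase Dnmt1 to new DNA, fell by 1.01, 1.08 and 0.89 in acute, tolerant and recovered cells (adjusted p = 0.0263, 0.0281 and 0.0409).

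E2f1 is an activator of S phase genes. E2f1 measured 10.46, 10.45 and 10.63 in acute cells, 10.71, 10.47 and 10.77 in tolerant cells and 10.54, 10.48 and 10.60 in recovered cells, against 11.07, 10.97 and 11.52 in untreated cells. The untreated arrays were all above the LPS arrays. E2f1 fell by 0.68 (SE 0.16, adjusted p = 0.00865) in acute, by 0.54 (SE 0.16, adjusted p = 0.0398) in tolerant and by 0.65 (SE 0.16, adjusted p = 0.00972) in recovered cells.

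**Figure D3:**
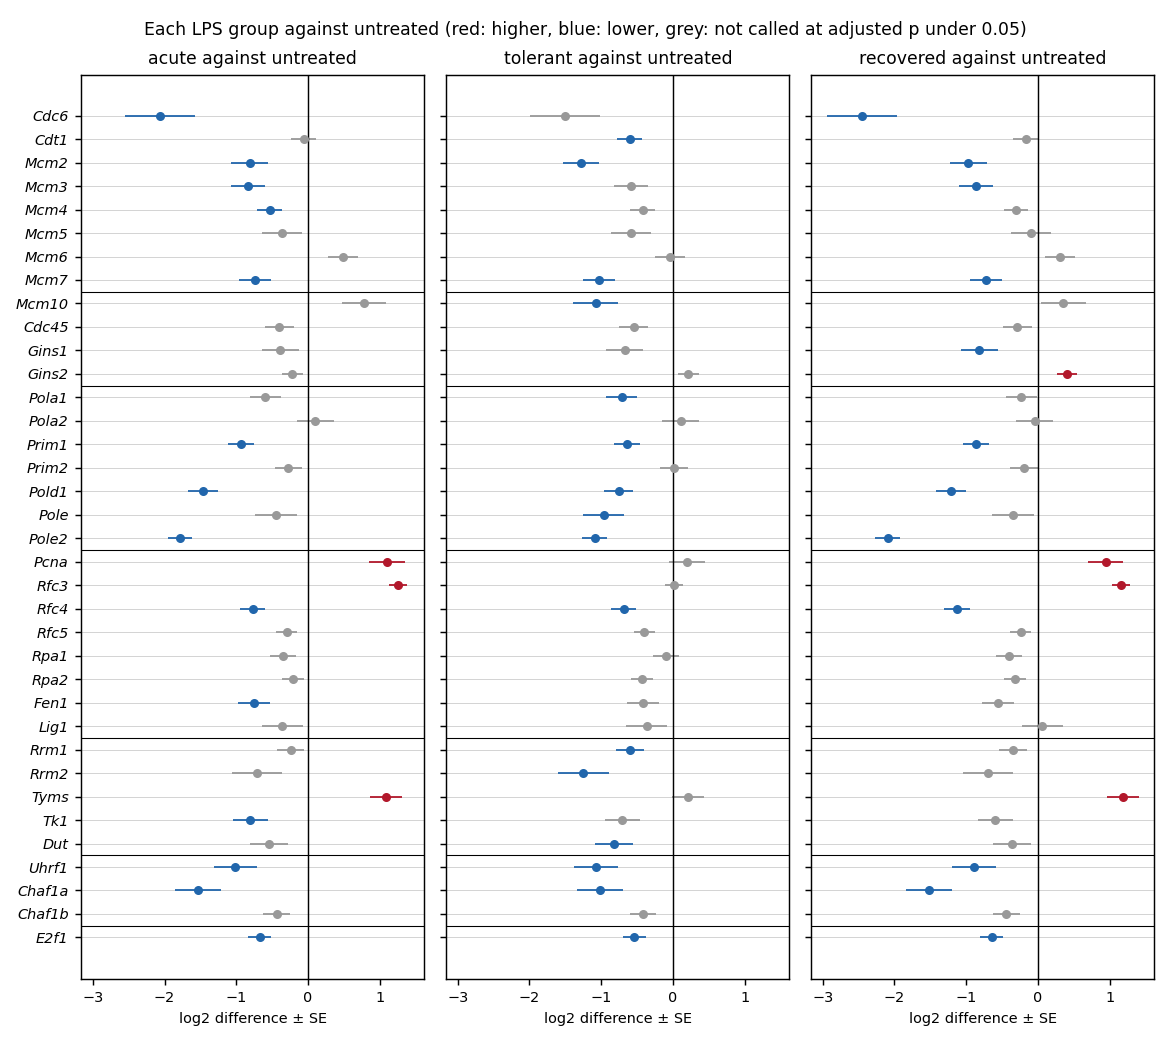
Log2 difference from untreated cells (horizontal axis, with SE) for the 36 tested members (vertical axis, divided by role) in acute, tolerant and recovered cells, coloured by call. Most points lie left of 0 in all 3 panels, and Pcna, Rfc3 and Tyms lie near or above 1 in acute and recovered cells and near 0 in tolerant cells.

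Promoters of 3 members that fell and 3 that rose, chosen after their values were seen, are shown because E2F factors act on such genes and because members moved in both directions. Each is 300 bases from RefSeq on build GRCm38.p6, 250 before to 50 after the annotated start, on the gene's strand, and capitals mark matches to the E2F motif letters TTTCCCGC, TTTGGCGC, TTTCGCGC or TTTGGCGG on either strand. The windows are chr11:98907901-98908200 (plus strand) for Cdc6, chr12:69228141-69228440 (minus) for Pole2, chr7:44548766-44549065 (minus) for Pold1, chr5:151651159-151651458 (minus) for Rfc3, chr2:132253131-132253430 (minus) for Pcna and chr5:30073576-30073875 (minus) for Tyms. Cdc6, Pole2 and Pold1 fell, and Rfc3, Pcna and Tyms rose. The array probes have positions on another build, mm9, and were not placed relative to these windows. They are given at chr12:70307465-70308864 for Pole2 and chr5:152448247-152450045 for Rfc3, where the files' probe positions span 1400 and 1799 bases. Those of Pold1 and Pcna span 369 and 33 bases.
Cdc6: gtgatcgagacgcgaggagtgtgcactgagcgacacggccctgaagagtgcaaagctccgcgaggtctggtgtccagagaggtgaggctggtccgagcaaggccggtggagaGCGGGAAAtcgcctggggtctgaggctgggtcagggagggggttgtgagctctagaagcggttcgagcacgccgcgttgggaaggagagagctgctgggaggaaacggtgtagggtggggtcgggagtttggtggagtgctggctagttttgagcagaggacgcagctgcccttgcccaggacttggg
Pole2: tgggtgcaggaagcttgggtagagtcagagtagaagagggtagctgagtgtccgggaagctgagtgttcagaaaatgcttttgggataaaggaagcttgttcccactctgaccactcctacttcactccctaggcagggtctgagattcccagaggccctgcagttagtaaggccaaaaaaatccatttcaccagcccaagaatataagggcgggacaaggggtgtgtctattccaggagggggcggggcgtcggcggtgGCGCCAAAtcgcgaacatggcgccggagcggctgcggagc
Pold1: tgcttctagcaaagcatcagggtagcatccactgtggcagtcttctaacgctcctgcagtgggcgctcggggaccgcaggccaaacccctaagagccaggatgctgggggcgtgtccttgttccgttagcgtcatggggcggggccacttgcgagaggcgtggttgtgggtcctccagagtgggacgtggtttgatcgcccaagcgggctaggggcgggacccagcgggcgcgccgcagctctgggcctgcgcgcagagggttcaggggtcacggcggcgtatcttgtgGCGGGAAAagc
Rfc3: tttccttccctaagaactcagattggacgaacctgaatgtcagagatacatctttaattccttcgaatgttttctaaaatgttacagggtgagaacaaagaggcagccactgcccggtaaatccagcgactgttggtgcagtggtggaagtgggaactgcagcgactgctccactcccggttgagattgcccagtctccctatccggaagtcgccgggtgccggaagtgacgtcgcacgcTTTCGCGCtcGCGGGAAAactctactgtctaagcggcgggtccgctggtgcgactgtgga
Pcna: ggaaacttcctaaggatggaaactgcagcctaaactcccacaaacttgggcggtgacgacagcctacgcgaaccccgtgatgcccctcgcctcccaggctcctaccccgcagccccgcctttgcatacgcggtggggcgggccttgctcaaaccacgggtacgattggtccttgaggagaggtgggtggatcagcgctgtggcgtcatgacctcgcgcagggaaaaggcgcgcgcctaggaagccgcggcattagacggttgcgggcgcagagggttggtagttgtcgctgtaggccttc
Tyms: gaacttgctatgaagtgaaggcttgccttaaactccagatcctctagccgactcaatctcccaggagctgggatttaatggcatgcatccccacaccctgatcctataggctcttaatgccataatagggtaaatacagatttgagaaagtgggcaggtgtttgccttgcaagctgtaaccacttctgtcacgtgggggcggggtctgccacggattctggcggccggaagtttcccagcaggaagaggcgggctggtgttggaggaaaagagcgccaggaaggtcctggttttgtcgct

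Counted from the annotated start, Cdc6 carried its match from base -138, Pole2 from base 10 and Pold1 from base 39. Rfc3, which rose, carried 2 matches, from bases -10 and 0, and the windows of Pcna and Tyms held none of these letters. Of the 40 members 34 had an entry, with 39 promoters, and Mcm4, Gins1, Gins2, Prim2, Pole and Ccne2 had none. Any of the 4 motifs occurred in 16 of the 39 promoters (41.0%) and in 2.37% of all 32851 promoters of the same length. By letters, TTTCCCGC was in 5, TTTGGCGC in 6, TTTCGCGC in 7 and TTTGGCGG in 4 of the 39, against 1.07%, 0.514%, 0.323% and 0.56% of all promoters. In Mcm5 and Mcm6 a TTTCGCGC and a TTTGGCGC match overlapped.

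Members with and without a match both rose and fell. Of the 15 tested members with a match, 7 fell and 1 rose in acute cells, and of the 16 with a promoter but no match, 6 fell and 2 rose. In tolerant cells 7 of 15 and 8 of 16 fell, and in recovered cells 7 of 15 and 4 of 16 fell. Of all genes, 14.9% were called lower and 14.3% higher in acute cells. In tolerant and recovered cells 8.64% and 16.8% of all genes were called lower. The median log2 differences were -0.60 with and -0.49 without a match in acute cells, -0.60 and -0.57 in tolerant cells, and -0.41 and -0.40 in recovered cells. The difference between the members with and without a match was not tested.

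The question of tolerance is how a repeated exposure compares with a first one. In tolerant against acute cells, 5 members were lower (10.7% of all genes were) and 3 higher (12% of all genes were), and the median over the 36 was -0.08, beside -0.05 over all genes. Mcm10 fell by 1.85 (SE 0.31, adjusted p = 0.00178), Rfc3 by 1.25 (SE 0.12, adjusted p = 9.47e-05), Pcna by 0.90 (SE 0.25, adjusted p = 0.0227), Tyms by 0.88 (SE 0.22, adjusted p = 0.0158) and Cdt1 by 0.54 (SE 0.18, adjusted p = 0.0457). Pold1 was higher by 0.71 (SE 0.21, adjusted p = 0.0315), Pole2 by 0.69 (SE 0.17, adjusted p = 0.0144) and Gins2 by 0.43 (SE 0.14, adjusted p = 0.048). With the replicate number as a block, Mcm6 (-0.52, adjusted p = 0.0428) was also lower and Chaf1a (0.52, adjusted p = 0.0383) also higher. The 5 became 2 without acute replicate 2 or tolerant replicate 1 and 3 without acute replicate 1 or tolerant replicate 3, and the 3 became 1 without any acute array in turn or without tolerant replicate 1. Mcm10, Rfc3 and Pole2 were called without each array in turn. The call of Pole2 was lost with another background correction, normexp (limma, adjusted p = 0.0545). Tyms was lost without acute replicate 2, tolerant replicate 1 or the second scan day. Pcna was lost without acute replicates 1 or 2 or tolerant replicates 1 or 3. Pold1 was lost without any acute array in turn or tolerant replicates 1 or 3, and Cdt1 and Gins2 in 9 of the 12 fits each. With no filter on dim probes, Pold1, Cdt1 and Gins2 were lost, and Pold1 also with quantile normalization.

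Recovered against tolerant cells compares a long with a short rest before the same last exposure. Here 3 members were higher (11.2% of all genes were) and 1 lower (9.49% of all genes were), and the median was 0.17, beside 0.09 over all genes. Mcm10 rose by 1.43 (SE 0.31, adjusted p = 0.00902), Rfc3 by 1.15 (SE 0.12, adjusted p = 0.000213) and Tyms by 0.97 (SE 0.22, adjusted p = 0.0117). Pole2 fell by 1.00 (SE 0.17, adjusted p = 0.00259). Pcna stood at 0.74 (SE 0.25, adjusted p = 0.0543, or 0.00551 with the block). With the replicate number as a block, 6 were higher and 4 lower, where 25.4% and 19.8% of all genes were, adding Cdt1 (0.43, adjusted p = 0.0197) and Mcm5 (0.49, adjusted p = 0.0458) above, and Rfc4 (-0.44, adjusted p = 0.019), Chaf1a (-0.50, adjusted p = 0.0446) and Cdc6 (-0.95, adjusted p = 0.0451) below. Without recovered replicate 3, 5 were higher. Without the second scan day, the calls of Mcm10 and Tyms were lost, at adjusted p = 0.0531 and 0.0523, and Pcna and Dut were called higher.

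Recovered against acute cells sets the second exposure after a long rest beside the first. Gins2 was the 1 member called, higher by 0.62 (SE 0.14, adjusted p = 0.0499), where 1.48% of all genes were called higher. The call was lost without each of the 3 acute and 3 recovered arrays, without untreated replicates 1 or 2, without tolerant replicates 1 or 2, and without the second scan day. None of the 36 was lower by limma, 0 at an unadjusted p under 0.05 and 0 with the block, where 0.57% and 4.71% of all genes were. The median of the 36 was 0.02, beside 0.05 over all genes, and differences ran from -0.43 for Gins1 to 0.62.

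**Figure D4:**
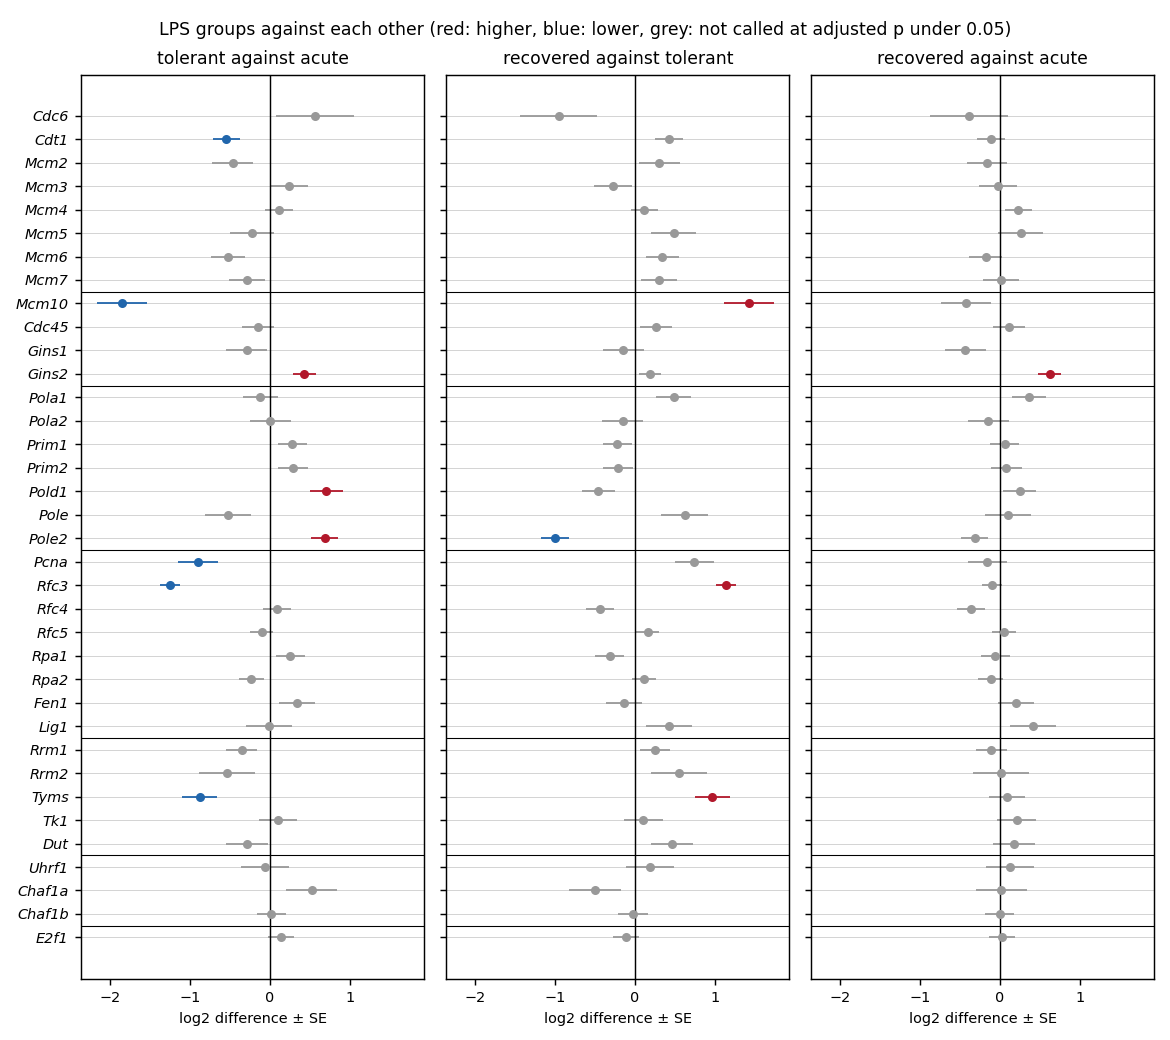
Log2 difference (horizontal axis, with SE) of the 36 tested members (vertical axis, divided by role) in tolerant against acute, recovered against tolerant and recovered against acute cells, coloured by call. Mcm10, Rfc3, Pcna and Tyms lie left of 0 in the first panel and right of 0 in the second, Pole2 does the reverse, and the third panel has 1 coloured point, Gins2.

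The arrays lay on 3 slides and were also compared within each slide, where a group had 1 array, apart from the recovered group with none on the first and 2 on the second slide. The median of the members in acute against untreated cells was -0.41, -0.24 and -0.83 on the 3 slides, and in tolerant against untreated cells it was -0.47, -0.53 and -0.68. In recovered against untreated cells it was -0.10 on the second and -0.83 on the third slide. For recovered against tolerant cells the within-slide medians had opposite signs, 0.49 on the second and -0.14 on the third slide, and for recovered against acute cells they were 0.12 and -0.14. In tolerant against acute cells they were -0.03, -0.36 and 0.07. Recovered replicate 3 carried the members low, at a median of -0.36 from their means over all arrays, beside 0.17 and 0.00 on recovered replicates 1 and 2, and all replicate 3 arrays lay on the third slide, scanned on another day. Rfc3 and Mcm10 kept their order on each slide that held both groups, recovered above tolerant and acute above tolerant.

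Other replication genes, in a list of 48 of which 47 were tested, gave 22 lower and 6 higher in acute, 19 lower and 1 higher in tolerant (29 and 5 with the replicate block) and 25 lower and 5 higher in recovered cells. Of all genes, 14.9% were lower and 14.3% higher in acute cells. The shares were 8.64% and 11.3% in tolerant (18.8% and 18.9% with the block) and 16.8% and 18.6% in recovered cells. Their medians were -0.52, -0.51 and -0.57. Genes called lower in each of these groups included Dna2, a nuclease and helicase of the lagging strand. Dna2 stood at -1.97, -1.65 and -2.55 in acute, tolerant and recovered cells (adjusted p = 0.00032, 0.0019 and 4.1e-05). Another was Gmnn, geminin, the inhibitor of Cdt1 (-1.88, -0.83 and -1.75, adjusted p = 0.00022, 0.046 and 0.00033). Brca2 was the lowest of the list in recovered cells, at -2.57. Ung, the glycosylase that removes uracil from DNA, rose by 1.49, 1.91 and 2.86 (adjusted p = 0.0065, 0.0023 and 6.4e-05), and Samhd1, which breaks down deoxynucleotides, rose by 1.57 in acute and 1.18 in recovered cells (adjusted p = 0.00025 and 0.0015).

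The list of 25 E2F, retinoblastoma and G1/S regulators was mixed, with 6 higher and 8 lower in acute, 2 higher and 4 lower in tolerant (4 and 9 with the block) and 7 higher and 7 lower in recovered cells (7 and 12 with the block). Of all genes, 14.3% were higher and 14.9% lower in acute cells. The shares were 11.3% and 8.64% in tolerant (18.9% and 18.8% with the block) and 18.6% and 16.8% in recovered cells. The block also called more of all genes in total in recovered cells, as given under processing. Its shares by direction there are not given, so the block counts in recovered cells stand without that comparison. E2f2 fell by 3.39, 2.73 and 3.91 in acute, tolerant and recovered cells (adjusted p = 1.9e-06, 2.4e-05 and 5.9e-07). Ccne1, the cyclin partner of Cdk2 at S phase entry, rose by 2.10 in acute and 2.33 in recovered cells (adjusted p = 1.7e-05 and 7.3e-06), and in tolerant against acute cells it fell by 1.52 (adjusted p = 0.00055). Cdkn1a, the p21 inhibitor of those kinases, rose by 2.70, 1.67 and 2.68 (adjusted p = 2e-06, 0.00019 and 2.1e-06). Rbl1, a repressor of the retinoblastoma family, rose by 1.79 and 1.68 in acute and recovered cells (adjusted p = 3.3e-05 and 4.7e-05) and fell by 1.69 in tolerant against acute cells (adjusted p = 0.00019).

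Mitotic genes, 22 tested of 24, were lowest in tolerant cells. In tolerant cells 17 were lower and 0 higher (20 and 1 with the block), beside 5 lower and 2 higher in acute (11 and 3 with the block) and 6 lower and 2 higher in recovered cells (9 and 4 with the block). Of all genes, 8.64% were lower and 11.3% higher in tolerant cells (18.8% and 18.9% with the block). The shares were 14.9% and 14.3% in acute and 16.8% and 18.6% in recovered cells. There the block also called more of all genes in total, as given under processing. Its shares by direction in acute and recovered cells are not given, so the block counts there stand without that comparison. In recovered against tolerant cells 11 were higher and 0 lower (18 and 0 with the block), among them Ccnb2, a mitotic cyclin (2.01, adjusted p = 0.00082), and Plk1, a mitotic kinase (1.56, adjusted p = 0.0022). Of all genes, 11.2% were higher and 9.49% lower there (25.4% and 19.8% with the block). The median of the mitotic genes was -0.60, -1.17 and -0.37 in acute, tolerant and recovered cells against untreated cells. The difference between the lists was not tested.

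**Figure D5:**
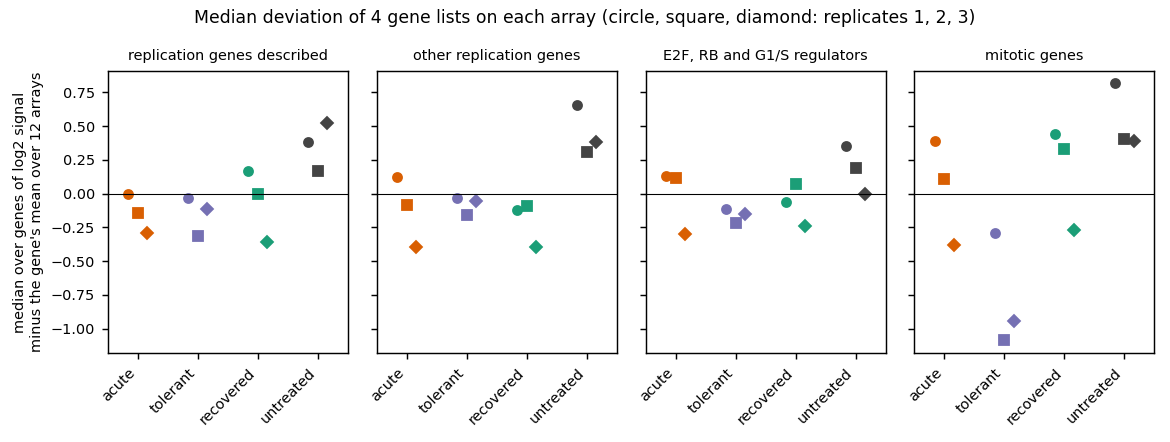
Median over the genes of a list of the log2 signal minus the gene's mean over 12 arrays (vertical axis) on each array, by group (horizontal axis), for the 36 members and 3 other lists. The other replication genes are highest on the 3 untreated arrays, the members too except that recovered replicate 1 at 0.17 lies beside untreated replicate 2 at 0.16. The mitotic genes stand at -0.29, -1.09 and -0.94 on the 3 tolerant arrays. Acute replicate 3 at -0.38 and recovered replicate 3 at -0.27 lie beside the first of these.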

How the data were processed

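RNA (200 ng per array) was labelled with Cy3 for 1-colour Agilent arrays, per the labels' protocols. The deposited scanner intensity values were made with Agilent Feature Extraction 10.7.3.1, with probe positions on mm9, per the file headers. A value table, named as log2 and deposited by the authors, matched each array's own scanner values and served as an alternative. The submitters' processing notes name limma. Each processed signal was taken to log2, less the array's 75th percentile plus the mean of the percentiles. Control spots and outlier spots were left out. Probes well above background on all 3 arrays of a group were kept (28080), 1 per gene. All 12 arrays entered 1 limma fit (limma 3.58.1, R 4.3.3) with Benjamini-Hochberg adjustment over 20511 genes, called at an adjusted p under 0.05. The fit was tested on simulated data. The number of arrays limits precision. The members and lists were chosen with earlier results of these data known. Any member could be named. Values per array are given for the 3 called members with the largest rise or fall in each comparison and the largest F in each role. The main fit had no block, so its counts and SE take no account of the replicate number. After removal of group means, 18 same-numbered pairs correlated across genes at r of 0.275 to 0.773, and 36 others had a median of -0.368. That negative median is forced in part, since the values left in a group sum to 0. Replicate and slide number were the same on all arrays but recovered replicate 1, so pairing and slide cannot be told apart. Alternatives were both blocks (replicate, slide), quantile and normexp (offset 50) processing, the value table, no filter, all probes, 1 scan day and leaving out each array.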

Additional observations from a re-analysis of the deposited data

How the results depend on the processing

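No call of a member reversed under any alternative. Against the 14 members lower in acute cells, no filter on dim probes gave 9, leaving out the second scan day 9 and the replicate block 18. The authors' table added 8 calls of members in acute cells, taken over both directions. Against the 16 lower in tolerant cells, the authors' table gave 26, no filter 5 and the replicate block 26. Against the 12 lower in recovered cells, the authors' table gave 22. In tolerant against acute cells, no filter gave 1 member higher, against 3. In recovered against tolerant cells, the members higher were 6 with the authors' table, 6 with the replicate block and 7 with the slide block, against 3. Those lower were 4, 4 and 2 in the same order and 2 with normexp, against 1. Of all genes, the replicate block called 25.4% higher and 19.8% lower there, against 11.2% and 9.49%. The shares by direction with the authors' table, the slide block and normexp are not given here. In recovered against acute cells 0 were higher with normexp, no filter or 1 scan day, against 1. Over all genes the replicate block called 8930 in acute, 7721 in tolerant and 10798 in recovered against untreated cells, against 6000, 4082 and 7268, and it lost no call of a member. The calls it added are given beside the members' values. The slide block called 9326, 8109 and 10209 and the table deposited by the authors gave 9325, 7102 and 11163. The share of called genes that were higher, 48.9%, 56.6% and 52.6% in that order, was 37.3%, 40.8% and 38.9% with the authors' table and 41.6%, 48.0% and 42.2% with quantile normalization, a comparison added after the data were seen. Quantile normalization moved the median of all genes in acute cells to -0.10, against 0.02, and in recovered cells to -0.06, against 0.07, and the members' medians to -0.58 and -0.47. Leaving out single arrays gave 7 to 15 lower and 3 to 4 higher in acute, 3 to 17 lower in tolerant, 8 to 13 lower and 3 to 4 higher in recovered cells against untreated cells. It gave 2 to 5 lower and 1 to 3 higher in tolerant against acute, 3 to 5 higher in recovered against tolerant and 0 to 1 higher in recovered against acute cells. The causes were not tested.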
